A study of Mus musculus with 11 samples.

Results

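Ficolin A (Fcna), the collectins Colec10, Colec11 and Colec12, and the protease Masp1 were examined in the mesenchyme of the mouse liver. They were taken by gene symbol and make up 5 of the 27998 genes in the droplet tables. The set was chosen by the fall of Fcna in injured stellate cells, so that fall is given as a description, with no test. In uninjured liver Fcna, Colec10, Colec11 and Masp1 were far more abundant in hepatic stellate cells (HSCs), the vitamin A-storing pericytes of the sinusoid, than in other mesenchymal cells, whereas Colec12 was most abundant in fibroblasts (FBs). Of the 3 genes of soluble recognition proteins, Fcna differed most between uninjured and injured HSCs. At 72 h after carbon tetrachloride (CCl4) its level was 17.6-fold lower, beside 2.77-fold for Colec10 and 3.03-fold for Colec11.

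The lectin pathway is the arm of complement that starts at sugars. Ficolins and collectins are oligomers with a collagen-like stem and a sugar- or acetyl-binding head, and they circulate in complexes with the serine proteases MASP-1, MASP-2 and MASP-3. On binding a surface, MASP-1 activates itself and MASP-2, which leads to cleavage of C4 and C2 and then of C3. Colec10 and Colec11 encode collectin liver 1 and collectin kidney 1, which assemble with each other into mixed oligomers, while Colec12 encodes a membrane-bound collectin that acts as a scavenger receptor. The Masp1 gene gives rise to MASP-1, MASP-3 and a truncated inhibitor by alternative splicing, and counts per gene do not tell these products apart.

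All samples came from male C57BL/6 mice, 10 to 16 weeks old, that carry Pdgfrb-BAC-eGFP, a transgene that marks mesenchymal cells with GFP from the Pdgfrb promoter. Cells were sorted as GFP+, CD45- and CD102-, after a perfusion and density-gradient protocol labelled HSC or a mincing protocol labelled PF. The 5 droplet (10x Chromium) libraries each pooled 3 mice, so every condition was 1 library and no difference between those libraries could be tested. Under the HSC protocol they were uninjured liver, liver 72 h after 1 dose of CCl4, which injures hepatocytes around the central vein, and liver after 6 weeks of CCl4 with 2 injections a week. Under the PF protocol they were uninjured liver and liver after 6 weeks of CCl4. By the study's methods the 6-week livers were taken less than 72 h after the last injection. Their cells were thus nearer in time to a dose than those of the 72 h library. The 6 Smart-seq2 plates held wells of single cells from uninjured mice, from mice 14 days after bile duct ligation (BDL), and from mice after 6 weeks of CCl4. HSC-like wells came from 2 mouse labels of 1 plate, both uninjured, so injured HSCs could be examined in the droplet data alone.

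Of 31018 droplets, 30999 passed the filters, with 25965670 to 86664085 unique molecular identifiers (UMIs, each standing for 1 captured transcript) per library and a median of 4300 to 11344 per cell. Between 3.28% and 3.36% of the barcodes of a library also occurred in another library. Cells were clustered without the 5 members, and clusters were called HSC-like, FB-like or VSMC-like (vascular smooth muscle) from marker lists. The 3 HSC-protocol libraries gave 6850, 7296 and 5450 HSC-like cells, and the 2 PF-protocol libraries gave 4019 and 2621 FB-like and 1665 and 2995 VSMC-like cells. A further 53 and 32 cells of the PF libraries were called HSC-like, all but 1 of them in a cluster led by Saa3 and Lcn2. In the 53 of them from uninjured liver the FB markers summed to 11532 counts per 1000000 UMIs (CPM) and the HSC markers to 2091 CPM, which goes against their name. They stayed out of the HSC-like values below, except the shares of UMIs by class and the likeness over groups. In uninjured liver the HSC-like cells lay mostly in clusters led by Cxcl10, by Clec4g and by Fcna with Hhip. Fcna, left out of the clustering, was also among the leading genes of the Cxcl10 cluster. At 72 h the cells lay mostly in clusters led by H19, by Atp1a4 and by cell cycle genes. At 6 weeks the Cxcl10, Clec4g and Hhip clusters held 805, 896 and 935 of the 5450 cells, beside 1568 in a cluster led by Adamts4 and 901 in the one led by Saa3. At 72 h 1254 of the 7296 cells carried transcripts of cell cycle genes, beside 40 of 6850 in uninjured liver and 77 of 5450 at 6 weeks.

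At 72 h Fcna and Colec11 were the recognition genes with the lowest and the highest level. The sequences around their start sites are shown because, of the 5 members, only these 2 had matched entries. Both come from RefSeq (GRCm38.p6), run from 250 bases before to 50 bases after the start, and lie on the minus strand, at chr2:25627925-25628224 for Fcna and chr12:28623281-28623580 for Colec11. Entries for 2 of the 5 members were matched in the RefSeq table used here. They were searched on both strands for TATAAA, for TAATTA, the core bound by LIM homeodomain factors, for TGANTCA, bound by AP-1, and for AGATAA, bound by GATA factors. Capitals mark the only match, an AGATAA that starts 78 bases before the Colec11 start. Of 32851 mouse promoters of this length, 11.2% hold AGATAA, 13.6% TATAAA, 5.29% TAATTA and 7.81% TGANTCA.
Fcna: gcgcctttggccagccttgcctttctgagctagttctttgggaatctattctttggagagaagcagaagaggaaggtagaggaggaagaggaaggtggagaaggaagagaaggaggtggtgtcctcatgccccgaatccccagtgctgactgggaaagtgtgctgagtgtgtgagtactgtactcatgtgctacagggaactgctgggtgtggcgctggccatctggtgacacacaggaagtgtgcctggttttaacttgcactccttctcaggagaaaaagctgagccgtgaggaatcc
Colec11: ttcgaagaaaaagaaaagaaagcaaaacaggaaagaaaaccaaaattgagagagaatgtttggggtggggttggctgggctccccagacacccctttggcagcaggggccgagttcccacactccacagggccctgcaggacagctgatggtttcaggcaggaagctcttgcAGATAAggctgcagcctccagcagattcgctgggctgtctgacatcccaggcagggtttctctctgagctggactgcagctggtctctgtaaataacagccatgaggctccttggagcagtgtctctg

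Fcna (ENSMUSG00000026938, GRCm38, chr2:25624666-25628030, minus strand) encodes ficolin A, the liver and plasma ficolin of the mouse. In uninjured HSC-like cells it stood at 3327 CPM of summed UMIs (95% Poisson interval 3311 to 3344). At 72 h it stood at 189 CPM (186 to 192), and after 6 weeks at 808 CPM (800 to 816). The intervals cover counting error only, not differences between mice. The level was thus 17.6-fold lower at 72 h than in uninjured cells and 4.12-fold lower at 6 weeks, and the 72 h level was 4.28-fold below that at 6 weeks. In both comparisons with uninjured cells Fcna had the 5th lowest ratio, of 6229 genes measured at 72 h and of 6019 at 6 weeks. These are the values by which the gene was chosen.

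The lower level was spread over the cells. A UMI of Fcna was found in 99.4% of uninjured HSC-like cells, 69.2% at 72 h and 92.5% at 6 weeks, at a median of 6718, 11350.5 and 9893 UMIs per cell. For shares at equal depth each cell was thinned to 2000 UMIs, which left out 114 uninjured cells and no other. On that scale 96.1%, 28.4% and 65.1% of cells held Fcna, and the median cell held 6, 0 and 1 UMIs. Cells with 6 or more UMIs were 50.8% in uninjured liver, 0.137% at 72 h and 4.99% at 6 weeks. The variance over the mean of the thinned UMIs was 3.90, 1.51 and 2.54, where 1 is that of Poisson counts.

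Colec10 (ENSMUSG00000038591, GRCm38, chr15:54410774-54466358, plus strand) was present at 1061 CPM (1052 to 1071) in uninjured HSC-like cells, 383 CPM (379 to 387) at 72 h and 818 CPM (811 to 826) at 6 weeks. Colec11 (ENSMUSG00000036655, GRCm38, chr12:28594173-28623377, minus strand) gave the most UMIs of the members, at 6438 CPM (6415 to 6461), 2122 CPM (2112 to 2131) and 5307 CPM (5287 to 5327). At 72 h the levels were 2.77-fold and 3.03-fold below those of uninjured cells, and at 6 weeks 1.30-fold and 1.21-fold below them. Thinned to 2000 UMIs, Colec10 was found in 84.7%, 49.9% and 72.5% of cells, in the same order of conditions. Colec11 was found in nearly every uninjured cell, in 91.1% at 72 h and in 99.6% at 6 weeks. The 2 collectins kept nearly the same ratio to each other, with 6.07, 5.54 and 6.48 UMIs of Colec11 per UMI of Colec10. Against Fcna the ratio of Colec11 was 1.93 in uninjured cells, 11.2 at 72 h and 6.57 at 6 weeks.

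The 3 genes of soluble recognition proteins together made up 1.08% of all UMIs of uninjured HSC-like cells, 0.269% at 72 h and 0.693% at 6 weeks. Fcna gave 30.7% of that pool in uninjured cells, 7.01% at 72 h and 11.7% at 6 weeks, and Colec11 gave 59.5%, 78.8% and 76.5%. After thinning, 81.3% of uninjured cells held UMIs of all 3 genes, against 16.5% at 72 h and 50.1% at 6 weeks. Every one of the 6736 thinned cells of uninjured liver held at least 1 of the genes, whereas 5.89% of cells at 72 h and 0.312% at 6 weeks held none.

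Masp1 (ENSMUSG00000022887, GRCm38, chr16:23449417-23520815, minus strand), the protease gene, was scarce in the droplet data. It stood at 16.1 CPM (747 UMIs) in uninjured HSC-like cells, 5.63 CPM (487 UMIs) at 72 h and 23.9 CPM (1248 UMIs) at 6 weeks. Its level was thus 2.86-fold lower at 72 h (2.55 to 3.21) and 1.49-fold higher at 6 weeks (1.36 to 1.63). A UMI was found in 10.5%, 6.36% and 19.7% of the cells before thinning, and in 3.27%, 1.04% and 4.83% after it. In FB-like cells of uninjured liver, at a median of 4906 UMIs, the share was 0.0746% (3 UMIs in 4019 cells).

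Colec12 (ENSMUSG00000036103), the membrane collectin, had the opposite distribution. In uninjured liver FB-like cells held 129 CPM (124 to 134), VSMC-like cells 25.4 CPM (21.4 to 29.9) and HSC-like cells 3.00 CPM (2.52 to 3.54). In HSC-like cells it was at 11.7 CPM (10.9 to 12.4) at 72 h and 9.70 CPM (8.87 to 10.6) at 6 weeks, 3.89 times (3.25 to 4.68) and 3.24 times (2.68 to 3.93) the uninjured level. These levels stayed below 20 CPM, the least at which a ratio was counted. The excess at 6 weeks lay in the Saa3-led cluster, whose 901 cells held 42.6 CPM: without that cluster the ratio was 1.21. At 72 h the same cluster (199 cells) held 78.1 CPM and the ratio without it was 3.27. Markers of FBs, the class richest in Colec12, summed to 363 CPM in uninjured HSC-like cells, 477 at 72 h and 954 at 6 weeks, and their part in these ratios was not tested.

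**Figure D1:**
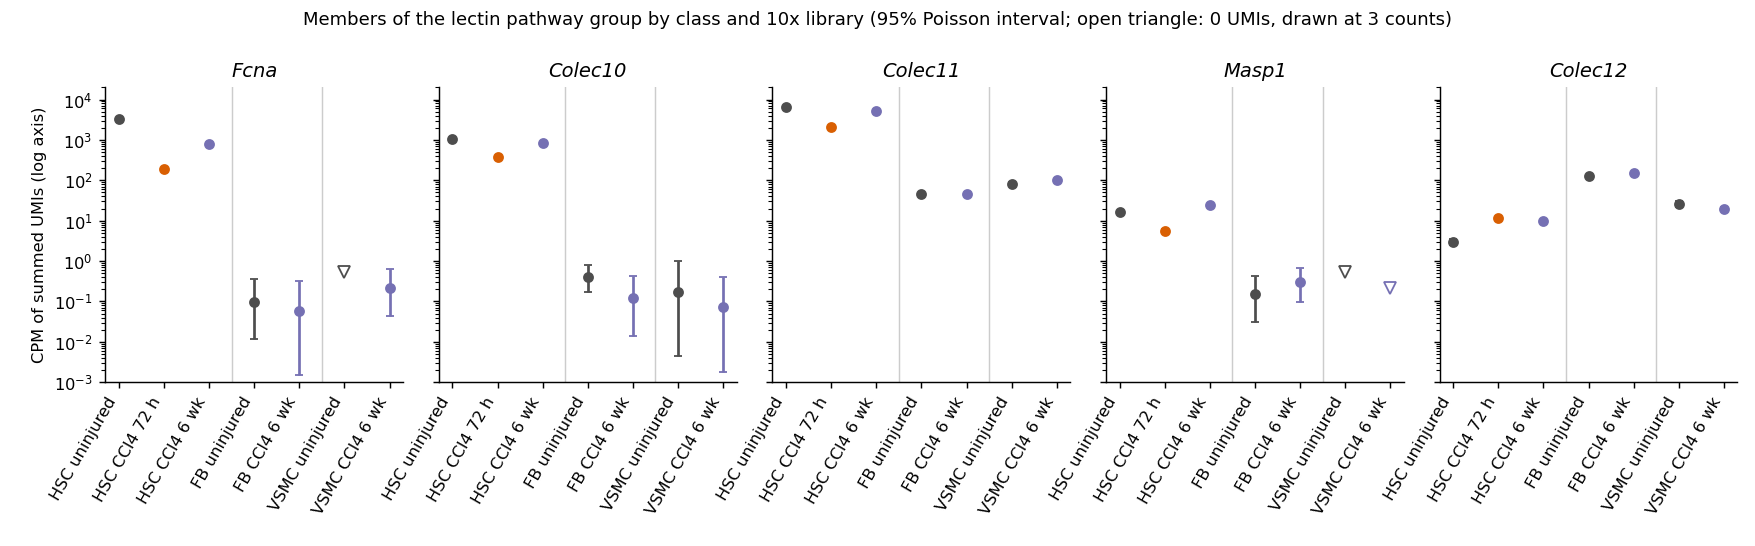
Level of each member (CPM of summed UMIs, log axis) in HSC-like cells of the 3 HSC-protocol libraries and in FB-like and VSMC-like cells of the 2 PF-protocol libraries, with 95% Poisson intervals, which are often smaller than the point; open triangles mark 0 UMIs, drawn at 3 counts. Fcna runs from 3327 CPM in uninjured HSC-like cells to 189 CPM at 72 h and is at or near 0 outside HSC-like cells, while Colec12 is highest in FB-like cells.

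A gene counted as different between 2 libraries when its ratio was at least 2-fold with 20 CPM or more in the higher group. By that rule, 3 of the 3 members measured were lower at 72 h than in uninjured HSC-like cells, where 9.73% of all 6229 genes were lower and 6.57% higher. At 6 weeks 1 of the 4 measured members, Fcna, was lower, where 1.61% of 6019 genes were lower and 2.84% higher. Between 72 h and 6 weeks Fcna, Colec10, Colec11 and Masp1 were lower at 72 h, where 5.04% of 5837 genes were lower and 3.84% higher, and Masp1 counted as measured only through its level at 6 weeks. No more is read from the counts that include Fcna against uninjured cells, since Fcna was chosen on them, and the 2 injury libraries share 1 uninjured library. The median ratio over all genes was 0.862 at 72 h and 0.857 at 6 weeks. Scaling the totals by TMM put Fcna 15.9-fold and 3.59-fold lower, with no member of at least 20 CPM changing direction in HSC-like cells.

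**Figure D2:**
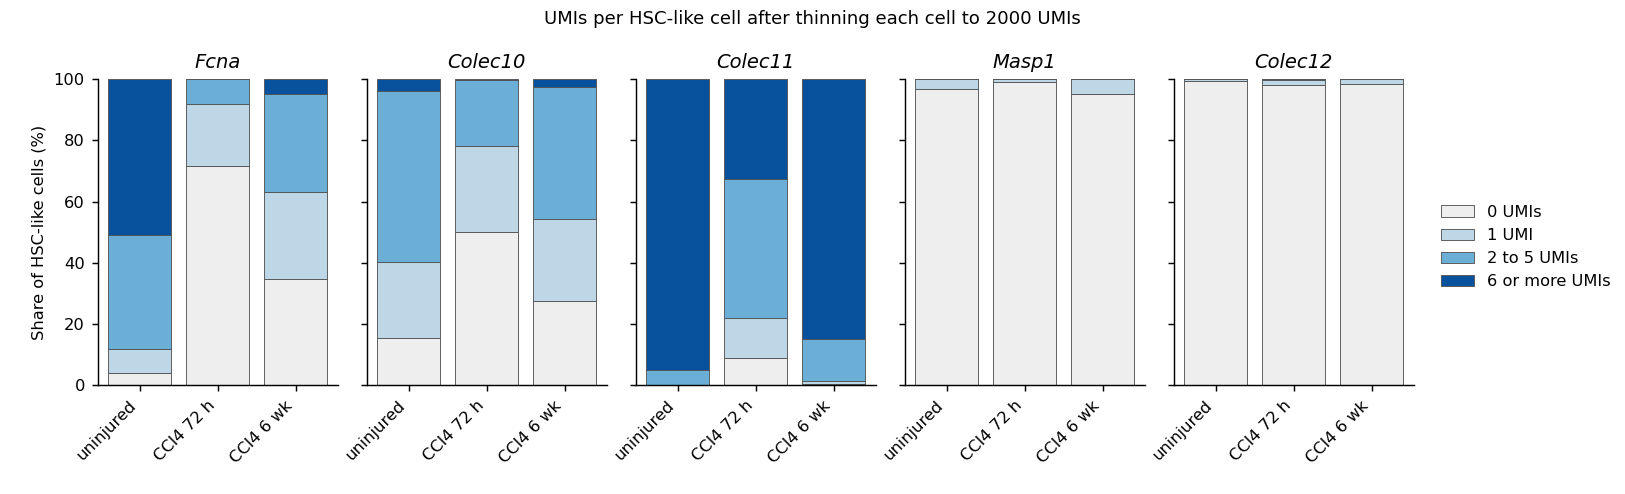
Share of HSC-like cells (%) with 0, 1, 2 to 5, and 6 or more UMIs of each member after thinning every cell to 2000 UMIs, for the 3 HSC-protocol libraries (6736, 7296 and 5450 cells). Cells with 6 or more UMIs of Fcna go from 50.8% in uninjured liver to 0.137% at 72 h and 4.99% at 6 weeks, while 84.8% of cells at 6 weeks hold 6 or more of Colec11.

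Kupffer cell markers summed to 0.604 CPM in uninjured cells, 1.49 at 72 h and 0.594 at 6 weeks, with 5, 6 and 6 of the 6 markers seen. Endothelial markers summed to at most 2.24 CPM and leucocyte markers to 6.98, 14.3 and 10.7 CPM. Mesothelial markers summed to 1.10 CPM in uninjured cells, 34.2 at 72 h and 39.1 at 6 weeks, with 1, 1 and 4 of the 5 markers seen, and their part in the differences was not tested. Hepatocyte markers, all 6 of them present, summed to 53.6, 31.8 and 43.4 CPM. Without the cells that held 2 or more hepatocyte markers, Fcna stood at 3351, 189 and 815 CPM. The HSC markers themselves summed to 21468, 4368 and 10018 CPM, led by Ecm1, whose level was 16.3-fold lower at 72 h. The markers did not fall alike. In the lowest and highest bins of the collagen score used below, Lrat stood at 1132 and 807 CPM at 72 h. In uninjured cells it stood at 1225 and 1272 CPM. Reln stood at 533 and 534 CPM at 72 h, beside 1365 and 1450 CPM in uninjured cells. VSMC markers summed to 594, 1994 and 990 CPM, and Col1a1, a fibrillar collagen gene, was 10.7-fold higher at 72 h and 3.21-fold higher at 6 weeks.

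In the droplet data Fcna, Colec10 and Masp1 gave few UMIs outside HSC-like cells. Of all UMIs in cells of the 3 named classes, 99.99% of those of Fcna, 99.99% of Colec10, 99.5% of Colec11 and 99.6% of Masp1 lay in HSC-like cells, against 23.2% of those of Colec12, for which FB-like cells held 70.9%. These shares depend on how many cells of each class were loaded, and the HSC-like cells in them include the 53 and 32 cells of the PF libraries. Fcna gave 2 and 1 UMIs in all FB-like cells of uninjured and injured liver, and a UMI of it was found in 0 of 1665 uninjured VSMC-like cells, which allows a share of cells with a UMI of up to 0.180%. In 6-week VSMC-like cells it gave 3 UMIs. Comparing uninjured HSC-like with uninjured FB-like cells, from separate libraries, Fcna had the highest ratio of 6649 genes, Colec10 the 3rd highest and Colec11 the 43rd. A UMI of Masp1 was found in 0 of 1665 and 0 of 2995 VSMC-like cells, which allows shares of cells with a UMI of up to 0.180% and 0.1002%. These limits do not cover other methods: the Smart-seq2 plates gave reads of Fcna in 10 and of Masp1 in 12 of 359 uninjured VSMC-like wells.

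Colec11 was present in FB-like and VSMC-like cells at a lower level and in particular clusters. FB-like cells held 44.8 CPM in uninjured and 44.9 CPM in 6-week liver, a ratio of 1.00 (0.910 to 1.11), and VSMC-like cells held 80.5 and 102 CPM, a ratio of 1.27 (1.14 to 1.41). Both ratios depended on where clusters were drawn. With clusters at a Leiden resolution of 0.4 and 1.2, FB-like cells held 79.0 and 81.9 CPM at 6 weeks, ratios of 1.37 and 1.24, and the VSMC-like ratio was 3.46 at the finer resolution. Within the FB-like cells a cluster led by Wif1 held 199 and 171 CPM, whereas 2 other clusters, led by Thbs4 and by Ly6c1, held 7.94 and 5.20 CPM in uninjured liver. Within the VSMC-like cells a cluster with Npnt among its leading genes held 387 and 384 CPM, beside 3.52 and 8.38 CPM in the cluster led by Tcap and 26.6 and 90.8 CPM in the largest cluster, led by Cd24a. In uninjured FB-like cells there were 899 UMIs of Colec11 beside 8 of Colec10, where uninjured HSC-like cells held 6.07 for each. Colec12 was highest in the same cluster of each class, at 236 and 264 CPM in the Wif1-led FB-like cells and at 76.7 and 67.6 CPM in the VSMC-like cluster with Npnt.

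In FB-like cells Colec12 stood at 129 CPM in uninjured and 151 CPM in 6-week liver, a ratio of 1.18 (1.11 to 1.24), with a UMI in 43.6% and 54.3% of cells. In VSMC-like cells it stood at 25.4 and 19.7 CPM, a ratio of 0.777 (0.633 to 0.956), and without called doublets both were below 20 CPM (16.1 in uninjured liver), at a ratio of 0.932. None of the 2 members measured in either class passed the 2-fold rule after 6 weeks of CCl4, with Colec11 in VSMC-like cells at the finer clustering the exception. Among all genes 1.32% were higher and 0.383% lower in FB-like cells, and 2.24% were higher and 0.357% lower in VSMC-like cells.

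HSCs differ between the portal and the central end of the lobule, and the recognition genes did so too, Fcna in one direction and the collectins in the other. Cells were ordered within each library by a score of 52 genes that mark the portal vein side and 28 that mark the central vein side, gene lists that the study drew from these uninjured cells, and were divided into 4 bins of equal size. Fcna belongs to the study's list of central genes and was left out of the score, so its direction in uninjured cells is not independent of that list. In uninjured cells Fcna went from 4415 CPM in the central-most bin over 3691 and 3127 to 2127 CPM in the portal-most bin, 2.08-fold lower (2.04 to 2.11). Colec10 ran the other way, from 828 over 982 and 1128 to 1295 CPM, 1.56-fold higher (1.52 to 1.61). Colec11 ran from 5218 over 6089 and 6786 to 7595 CPM, 1.46-fold higher (1.44 to 1.47). Masp1 stood at 16.3, 16.5, 14.5 and 17.1 CPM, with no difference between the outer bins beyond counting error (ratio 1.05, 0.853 to 1.29).

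At 72 h the portal-most bin held the most of all 3 recognition genes. Fcna stood at 171, 148, 148 and 308 CPM from central to portal, Colec10 at 325, 297, 293 and 660 CPM, and Colec11 at 1734, 1541, 1486 and 4027 CPM. Against the matching bin of uninjured cells, Fcna was 25.8-fold lower in the central-most bin, 24.9-fold and 21.1-fold in the next, and 6.91-fold in the portal-most. At 6 weeks Fcna was at 731, 737, 915 and 850 CPM, the portal-most bin being 1.16-fold above the central-most, and it was 6.04-fold, 5.01-fold and 3.42-fold below the first 3 matching bins and at 0.399 times the portal-most. Colec10 and Colec11 kept their order at 6 weeks, from 540 to 1255 CPM and from 4250 to 7129 CPM, and in the portal-most bin stood 1.03-fold and 1.07-fold below uninjured cells. The central and portal ends of the injured libraries were set by the same score, and whether injury moved cells along it was not tested. Collagen differed along these bins too. Col1a1 stood at 2373 CPM in the central-most and 965 CPM in the portal-most bin at 72 h. At 6 weeks it stood at 814 and 190 CPM, and in uninjured cells at 214 and 174 CPM. Col1a1 did not fall steadily from central to portal. Of the 3 steps between bins 2 went up at 72 h, 1 at 6 weeks and 1 in uninjured cells. This ordering thus overlaps with the collagen ordering below, and their parts were not told apart.

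**Figure D3:**
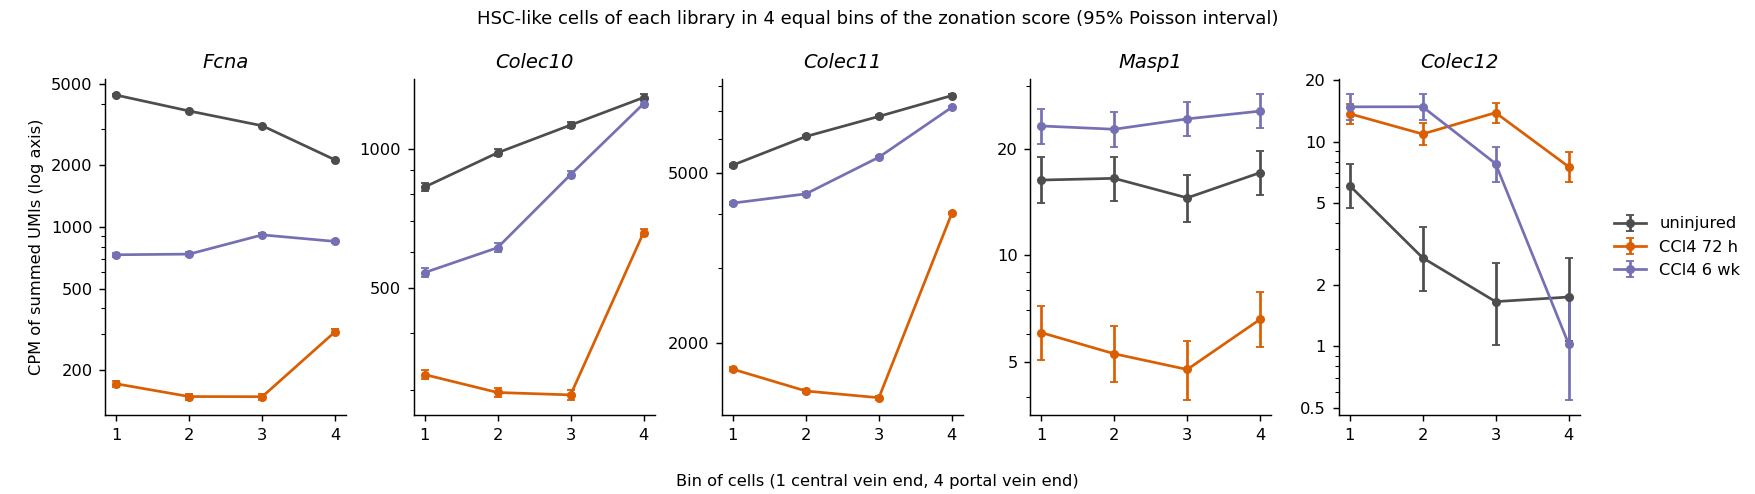
Level of each member (CPM of summed UMIs, log axis with its own range per panel) in bins of HSC-like cells ordered within each library from the central vein end (1) to the portal vein end (4) by the zonation score, with 95% Poisson intervals. In uninjured liver Fcna goes down from 4415 to 2127 CPM from bin 1 to 4 while Colec10 and Colec11 go up, and at 72 h all 3 are highest in the portal-most bin.

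Within each injured library the 3 recognition genes were lower where fibrillar collagen was higher. When cells were ordered by a score of Col1a1, Col1a2 and Col3a1, Fcna at 72 h stood at 371, 220, 125 and 86.1 CPM from the lowest to the highest bin, 4.31-fold lower (4.10 to 4.53). Colec10 went from 695 to 196 CPM and Colec11 from 4134 to 1119 CPM, 3.55-fold and 3.69-fold lower. At 6 weeks the highest bin was 2.55-fold lower for Fcna (1104 to 433 CPM), 1.98-fold for Colec10 (1053 to 532 CPM) and 1.57-fold for Colec11 (6357 to 4056 CPM). In uninjured cells it was 1.32-fold, 1.14-fold and 1.15-fold lower. Colec12 ran the other way, from 1.60 to 25.3 CPM at 72 h and from 1.09 to 26.1 CPM at 6 weeks. Over all HSC-like cells at 6 weeks it stood at 9.70 CPM, and at 3.46 CPM without the Saa3-led cluster. The part of that cluster in this rise was not tested.

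The bin of lowest collagen score at 72 h did not hold the uninjured level of Fcna. Bins were set within each library, so matching bins differ in collagen itself. Col1a1 stood at 287 CPM in the lowest bin at 72 h and at 27.4 CPM in the lowest bin of uninjured cells. In the highest bins it stood at 4805 and 549 CPM. The part of this difference in collagen was not tested. The lowest collagen bin at 72 h held 371 CPM of Fcna, 9.92-fold below the lowest bin of uninjured cells, while Colec10 and Colec11 in it were 1.58-fold and 1.64-fold below theirs. In the highest bin the 3 genes were 32.2-fold, 4.91-fold and 5.26-fold below theirs. The bins of the collagen score differ in depth, with a median of 9892.5 UMIs per cell in the lowest and 13211.5 in the highest bin at 72 h, and the part of depth in these differences was not tested.

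**Figure D4:**
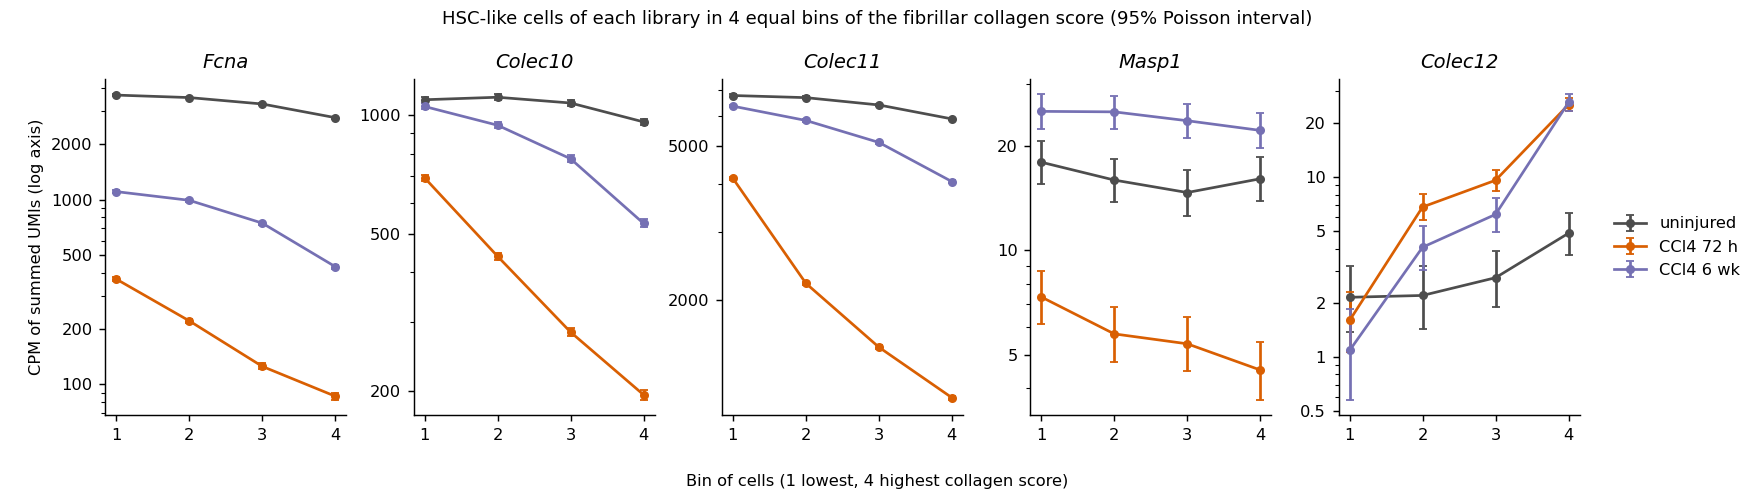
Level of each member (CPM of summed UMIs, log axis with its own range per panel) in bins of HSC-like cells ordered within each library by a score of Col1a1, Col1a2 and Col3a1, with 95% Poisson intervals. At 72 h Fcna goes from 371 to 86.1 CPM from the lowest to the highest bin, and Colec12 from 1.60 to 25.3 CPM.

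Among the 5 clusters with more than 100 HSC-like cells at 72 h, Fcna was highest in one of 1811 cells led by Atp1a4 and Alpl, at 372 CPM beside 4277 CPM of Colec11 and 2.53 CPM of Colec12. Smaller clusters were left out of this ranking, among them the one led by Fcna and Hhip, with 62 cells at 72 h. The largest cluster, of 3651 cells led by H19 and Cthrc1, held 133 CPM of Fcna and 1578 CPM of Colec11. A cluster of 1101 cells led by cell cycle genes held 108 and 927 CPM, and the Saa3-led cluster held 35.2 and 602 CPM. Cells called as cycling at 72 h held 155 CPM of Fcna and 1468 CPM of Colec11, beside 199 and 2316 CPM in the remaining cells. The 16.8-fold lower level of Fcna at 72 h without cycling cells was close to that with them.

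How the recognition genes varied together from cell to cell was described on thinned counts, where counting noise lowers r. After thinning, Pearson's r between Fcna and Colec11 was -0.03 in uninjured cells (n = 6736 cells), 0.21 at 72 h (n = 7296) and 0.21 at 6 weeks (n = 5450), and between Colec10 and Colec11 it was 0.12, 0.35 and 0.30. Cells of a library share its capture and sequencing, and these values are descriptions. The genes most like Fcna in uninjured cells were Apoe (r = 0.30), Ecm1 (0.28), Dcn (0.27) and Tgfbi (0.21), which encode secreted proteins, and Rspo3 (0.17), a Wnt agonist on the study's central list. The lowest r were those of Tagln (-0.25) and Igfbp3 (-0.24), both on its portal list. In injured cells Dcn and Ecm1 stayed among the 5 most like, with Plvap, and Col1a1 had the lowest r in both libraries (-0.24 and -0.24). Over the 8 groups of class and library with at least 50 cells, the level of Fcna was most like that of Mapt and Lrrn3 (r = 0.996 and 0.995), Colec11 most like Vipr1, a receptor gene on the HSC marker list (r = 0.999), and Colec10 most like Lama1 (r = 0.999). Colec12 was most like Col6a6 and Lbp (r = 0.991 and 0.988) and Masp1 most like Pydc4 (r = 0.996). The 8 groups share libraries and include the 53 cells described above.

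The rest of the complement system in HSC-like cells was examined by lists of 38 genes, of which 37 were analysed. The lists came with earlier results of these data known. No other recognition gene (Mbl1, Mbl2, Fcnb, Sftpa1 or Sftpd) and no other collagenous scavenger receptor reached 20 CPM in HSC-like cells of the 3 HSC-protocol libraries. Masp2, the protease that cleaves C4, gave 6, 12 and 13 UMIs in all uninjured, 72 h and 6-week HSC-like cells. At 72 h 9.73% of all 6229 genes were at least 2-fold lower and 6.57% higher. Of the 10 listed genes measured, 8 were at least 2-fold lower and 0 higher, with a median ratio of 0.250 beside 0.862 for all genes. Among the lower genes were the substrates C4b and C2, the C1 proteases C1ra and C1s1, the factor B gene Cfb, and the regulators Clu and Vtn. Cfb went from 60.4 to 8.74 CPM and Clu, the clusterin gene, from 467 to 92.5 CPM. Cfb, under 20 CPM at 72 h, counted as measured only through its uninjured level. Serping1, which encodes the C1 inhibitor that also blocks the MASPs, stood at 1558 CPM in uninjured cells and 1111 CPM at 72 h.

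At 6 weeks 3 of 11 measured complement genes were at least 2-fold higher and 0 lower, with a median ratio of 1.08 beside 0.857 for all genes and with 2.84% of all genes higher. C3 counted as measured only through its level at 6 weeks. C3, the central component, went from 2.69 to 44.9 CPM (16.7-fold), C4b from 82.1 to 197 CPM (2.40-fold) and the terminal component C6 from 38.7 to 85.1 CPM (2.20-fold). The Saa3-led cluster held 901 of the 5450 HSC-like cells at 6 weeks and 45 of the 6850 uninjured ones. FB markers summed to 954 and 363 CPM in the same order. The part of that cluster and of FB transcripts in these ratios was not tested. C4b has a near-identical neighbour gene, C4a, that was not analysed here in the droplet data, so its counts are uncertain. Serping1 stood at 2665 CPM. Between 72 h and 6 weeks 11 of 11 measured complement genes were at least 2-fold lower at 72 h, beside 5.04% of all genes, with a median ratio of 0.234 beside 1.03 for all genes. At least Cfb and C3 counted as measured there only through their level at 6 weeks, so they could only come out lower at 72 h. In the PF libraries 1 of 14 measured genes passed in FB-like cells (Cfb, 2.01-fold higher), beside 1.32% of all genes. Cfb counted as measured there only through its level at 6 weeks, and its ratio lay next to the 2-fold limit. In VSMC-like cells 2 of 9 passed (C4b 2.09-fold and Clu 2.28-fold higher), beside 2.24% of all genes.

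The Smart-seq2 plates, read over the whole transcript and without UMIs, held the same members in uninjured HSC-like wells but placed Fcna above Colec11. The 2 portions (the wells of 1 mouse label on 1 plate, 150 and 156 wells) held 5972 and 4722 reads per 1000000 (RPM) of Fcna, 3225 and 3363 RPM of Colec10, and 4805 and 4589 RPM of Colec11. Per kilobase of exon these were 3437 to 4347 for Fcna, 2831 to 2964 for Colec11 and 703 to 733 for Colec10. On the per-length scale Fcna stood above Colec11 in each of the 2 portions, and both stood above Colec10, whereas in the droplet data, where each transcript is counted once at its 3' end, Colec11 stood 1.93 times above Fcna. All 306 wells held reads of each of the 3 genes.

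Masp1 differed most between the methods. It stood at 1429 and 1640 RPM in the 2 HSC-like portions, with reads in 305 of 306 wells, beside a UMI in 10.5% of uninjured droplet cells. Its mean Smart-seq2 level in RPM was 95.3 times its droplet level in CPM, where this ratio was 1.61 for Fcna, 3.10 for Colec10, 0.730 for Colec11 and 2.36 for Colec12. The cause of this difference was not tested. Per kilobase of exon Masp1 held 145 to 167 RPM, well below the recognition genes. In FB-like wells of uninjured mice it ran from 9.52 to 73.0 RPM (mean 38.5 ± 28.1, SD, n = 6 portions), with reads in 66 of 250 wells. Colec12 held 6.06 and 8.10 RPM in HSC-like portions, with reads in 13 of 306 wells.

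FB-like and VSMC-like wells allowed a test of injury, with portions as replicates and edgeR's quasi-likelihood test adjusted over all genes. A cluster of 155 wells led by Serpinb2 and Mmp7 got no class name and was in no fit. Of these wells 133 were in the 4 CCl4 portions, beside 122 FB-like and 208 VSMC-like wells. The 4 portions of them held 248 to 417 RPM of Colec12, with reads in 125 wells. The CCl4 tests do not cover these wells. A mouse label on 2 plates may be 1 mouse, so the adjusted p may be too small. Colec12 in FB-like wells ran from 324 to 873 RPM with a median of 682 in 6 uninjured portions. It stood at 404, 377, 452 and 367 RPM in the 4 BDL portions and at 720, 650, 516 and 473 RPM in the 4 CCl4 portions. The BDL portions lay below 5 of the 6 uninjured portions, and the CCl4 portions lay among them. Within plates, the BDL portions were lower than the uninjured portion on plate 1 (404 and 377 against 761 RPM) and plate 2 (452 against 709 RPM) but not on plate 4 (367 against 324 RPM). The CCl4 portions stood at 720 and 650 against 651 RPM on plate 3 and at 516 and 473 against 655 RPM on plate 5. The log2 fold change was -0.71 ± 0.24 (SE) in BDL, with edgeR's adjusted p = 0.346, and -0.13 ± 0.23 in CCl4, with edgeR's adjusted p = 1.00.

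Colec11 and Masp1 did not pass the test in either class. Colec11 in FB-like wells was 135 ± 64.3 RPM (SD, n = 6) in uninjured, 118 ± 73.5 (n = 4) in BDL and 118 ± 98.1 (n = 4) in CCl4 portions, with log2 fold changes of -0.19 ± 0.53 (SE) in BDL and -0.19 ± 0.53 in CCl4. Masp1 was 38.5 ± 28.1, 34.9 ± 27.9 and 54.1 ± 13.9 RPM in the same order. In VSMC-like wells Colec12 was 87.4 ± 55.3 RPM (n = 6) in uninjured, from 7.42 to 80.9 with a mean of 41.1 (n = 5) in BDL and 70.5 ± 46.8 (n = 4) in CCl4 portions. Colec11 there was 130 ± 123, 161 ± 149 and 156 ± 98.1 RPM. Masp1 there was 2.15 RPM in uninjured portions (0 to 5.44), 0.0689 in BDL (0 to 0.308) and 1.76 in CCl4 (0 to 7.06), with a log2 fold change of -4.75 ± 2.37 (SE) in BDL (edgeR, adjusted p = 0.636). Fcna and Colec10 were too low to be tested in either class.

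In FB-like wells 0 of 3 tested members passed an adjusted p of 0.05 in BDL, where 0.218% of 13303 genes did (edgeR), and 0 in CCl4, where 0% did and 593 genes had an unadjusted p under 0.05. In VSMC-like wells 0 of 3 passed in BDL, where 0.283% of 13093 genes did, and 0 in CCl4, where 0% did and 597 genes had an unadjusted p under 0.05. DESeq2 called 285, 64, 318 and 68 genes in these 4 comparisons, and no member. A test of whether the effect of injury differed between the 2 classes called 0 members. Of all 14534 genes it called 5 in BDL and 0 in CCl4. With so few calls it does not show that the members changed alike in both classes. Of the complement lists, Serping1 was higher in VSMC-like wells in BDL by 0.89 ± 0.13 on the log2 scale (edgeR, adjusted p = 0.00651), beside 0.61 ± 0.14 (adjusted p = 0.928) in CCl4. That fit left out the plate. With the plate as a block 1 gene was called in VSMC-like wells in BDL, beside 37 without it. In the test of the difference from FB-like wells in BDL, Serping1 did not pass (edgeR, adjusted p = 0.133). That test had the portion as a block, and without the block Serping1 passed narrowly (edgeR, adjusted p = 0.0491).

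**Figure D5:**
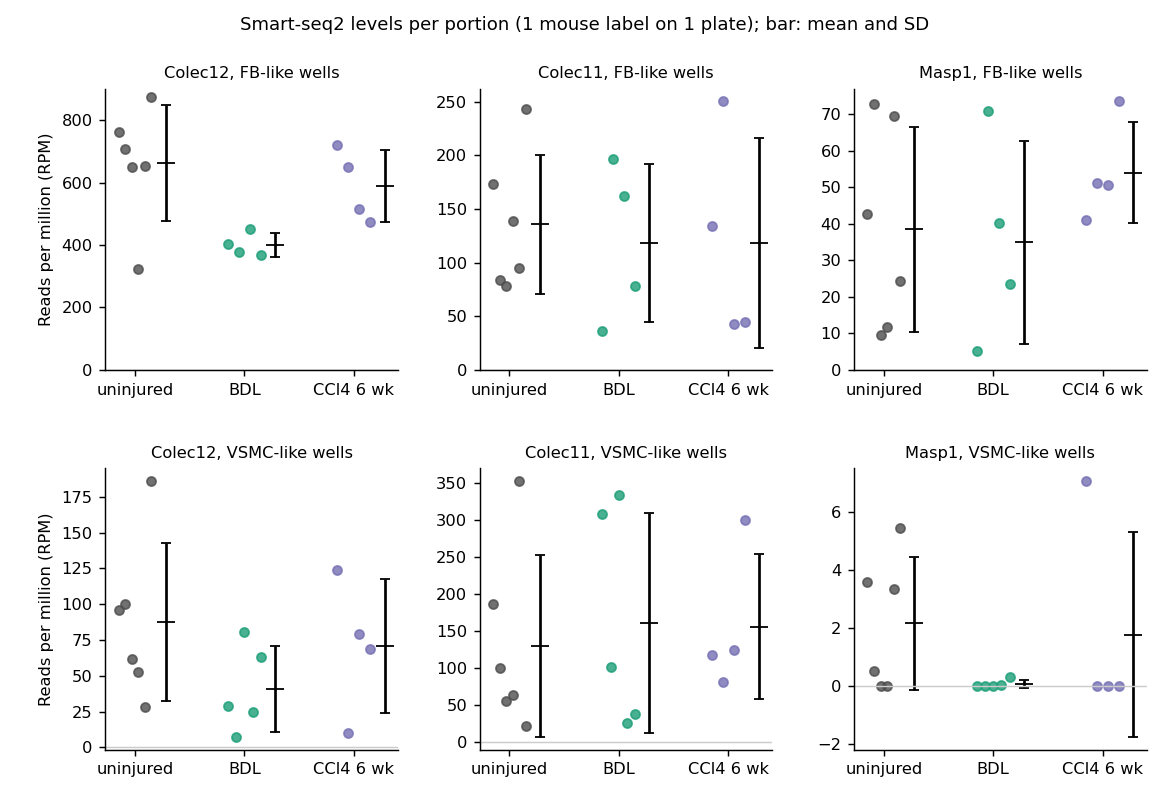
Level of Colec12, Colec11 and Masp1 (RPM) in FB-like and VSMC-like Smart-seq2 wells, each point 1 portion with at least 10 wells, beside the mean and SD of the condition. The 4 BDL portions of Colec12 in FB-like wells lie between 367 and 452 RPM, below 5 of the 6 uninjured portions.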

How the data were processed

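The authors deposited UMI counts per gene and cell for the 10x libraries, made with Cell Ranger 2.1.0 on mm10, and read counts per gene and well for the Smart-seq2 plates, made with STAR on mm10, with the mouse label of each well. The members, lists and tests were chosen with earlier results of these data known. Cells with at least 300 genes and at most 30% mitochondrial UMIs were kept, and wells within 3 median absolute deviations. Called doublets (4.36% to 5.84% of cells per library) were kept, and the caller missed many planted doublets on simulated data. Cells were clustered on 2000 variable genes without the members or the complement genes, with 10 principal components and the Leiden method at 0.8 (scikit-learn 1.9.0, leidenalg 0.10.2). Clusters were named from marker lists, and names may differ from those of the study. Levels were summed UMIs per 1000000 (CPM), with exact Poisson intervals at 95%, and with 1 library per condition no test was made. Smart-seq2 reads were summed per portion of at least 10 wells and tested with edgeR 4.0.16 (quasi-likelihood, adjusted p of 0.05), beside DESeq2 1.42.0. The p-values measure the spread between portions. Portions held 13749449 to 94921790 reads, without molecular identifiers. The genes named besides the members were those of fixed complement lists at 20 CPM or more in a stellate group, the 5 highest and 5 lowest correlations with Fcna over cells, the 3 highest for each member over groups, and markers. Masp1 in the Smart-seq2 comparison, the leading genes of clusters, and Col1a1 were chosen after their values were seen. Tests were checked on simulated counts. Some genes are not reported here.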

Additional observations from a re-analysis of the deposited data

Results flagged for a closer look

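In 7 of 23 groups of Smart-seq2 portions examined, 1 portion stood apart from the others of its group, where chance sets about 1 in 20 apart in normally distributed values, a rate that need not hold in groups with most portions at 0. All 7 concerned members at low levels in FB-like or VSMC-like wells. In uninjured VSMC-like wells, a portion of 17 wells on plate 6 held 99.4 RPM of Fcna and 33.9 RPM of Colec10, where the other 5 portions held at most 1.22 and 1.19 RPM. That plate also held the HSC-like wells, and the same portion held 40.5 RPM of the HSC marker Reln, in 15 of its 17 wells, and 26.5 RPM of Lrat, in 10 of them, where the other 5 held at most 0.827 RPM of Reln and 0 of Lrat. In uninjured FB-like wells, the portion of plate 5 (58 wells) held 3.78 RPM of Fcna and 12.2 RPM of Colec10, where the other 5 held at most 0.816 and 4.12 RPM, and it also held 51.3 RPM of Reln, in 3 wells. The part of HSC transcripts in these values was not tested. In BDL, 1 portion of FB-like wells on plate 2 held 0.538 RPM of Fcna, 15 reads from 1 of 77 wells, and the other 3 held 0. In VSMC-like wells Masp1 stood at 0.308 RPM in the BDL portion of plate 4, 14 reads from 1 of 106 wells, with at most 0.0370 RPM in the other 4. In a CCl4 portion of plate 3 it stood at 7.06 RPM, 143 reads from 1 of 45 wells, with 0 in the other 3.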

How the results depend on the processing

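The droplet levels have no replicate: 1 library per condition, 3 pooled mice each, and intervals for counting error only. Over the alternatives the ratio of Fcna to uninjured cells stayed between 0.0565 and 0.0631 at 72 h and between 0.238 and 0.278 at 6 weeks. With a Leiden resolution of 1.2, 1 member (Colec11) passed the 2-fold rule in VSMC-like cells. Leaving out the Saa3-led cluster, cycling cells or cells with hepatocyte markers was chosen after seeing the data. DESeq2 called 285 genes in FB-like wells in BDL, 64 in CCl4, 318 in VSMC-like wells in BDL and 68 in CCl4. Without a filter on low counts 45 genes were called in FB-like wells in BDL, and 54 with portions of at least 5 wells. With the plate as a replicate block the calls were 0 and 1 in FB-like wells (BDL and CCl4) and 1 and 0 in VSMC-like wells, and without the block 10 genes were called for the difference between classes in BDL. Among portions of different conditions, 1 of 8 same-plate pairs of FB-like portions and 0 of 9 VSMC-like pairs correlated above 0.1. On different plates 0 of 56 and 2 of 65 pairs did. With so few pairs this does not exclude an effect of the plate on the genes called. Leaving out 1 portion gave 5 to 39 calls in FB-like wells in BDL, 0 to 2 in CCl4, and 11 to 41 in VSMC-like wells in BDL. No member was called in the Smart-seq2 tests under any alternative. Without 1 portion each, the log2 fold of Colec12 in VSMC-like wells in CCl4 ran from -0.73 to 0.10, above 0 without Peak CCl4 2 of plate 3 or Uninjured 1 of plate 6, and it was 0.74 with the plate block. That of Colec11 ran from -0.51 to 0.12 in FB-like wells in BDL, above 0 without Peak BDL 1 of plate 1 or Uninjured 1 of plate 6. It ran from -0.83 to 0.085 in CCl4, above 0 without Peak CCl4 1 or 2 of plate 5 or Uninjured 1 of plate 6. In VSMC-like wells it ran from -0.11 to 0.99 in BDL, below 0 without Peak BDL 1 of plate 2, and from -0.23 to 0.90 in CCl4, below 0 without Peak CCl4 2 of plate 5. The cause was not tested. Of the member values, 261 stayed within counting error (droplet) or kept direction and call (Smart-seq2), 52 droplet values moved beyond counting error and 10 Smart-seq2 values changed sign.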
